A study of Mus musculus with 12 samples.

Results

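B117H, a mouse acute myeloid leukaemia (AML) cell line highly resistant to cytarabine (Ara-C), was compared with B117P, the Ara-C-sensitive parental line from which it was derived. The comparison used 6 of the 12 expression arrays of the series, 3 per line, and was made across all 18193 genes that a probe set named. The other 6 arrays hold a second pair, the sensitive line B140P and its resistant derivative B140H. All 4 lines go back to leukaemias of BXH-2 mice, which develop myeloid leukaemia from an endogenous retrovirus. The labels give rising Ara-C exposure and drug-free passage for every sample alike, so they do not separate B117P from B117H, and no dose or duration is given. They do not say whether a line is a single clone, or whether the arrays A, B and C of a line came from separate cultures. The p-values therefore measure only the spread between these samples, which may be technical.

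Ara-C is a cytidine analogue given for AML. It enters the cell through nucleoside transporters, is phosphorylated stepwise by the salvage kinases, first of all by deoxycytidine kinase, and as a triphosphate is built into DNA, where it stops synthesis. Deaminases and nucleotidases work against the activation, and the natural deoxycytidine triphosphate made by ribonucleotide reductase competes with the drug. AML cells are blocked at a progenitor stage of the myeloid lineage, so granule, monocyte and stem cell genes describe where a line stands on that path.

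Array medians lay between 118 and 131 intensity units of the linear RMA scale in all 12 arrays. Across probe sets, arrays correlated at 0.991 to 0.997 within B117P, at 0.992 to 0.995 within B117H and at 0.980 to 0.989 between the lines. No array of the B117 pair stood apart. Both lines carried the markers of immature myeloid cells: the leukocyte gene Ptprc measured between 10432 and 15122 intensity units over the 6 arrays, the progenitor gene Cd34 between 5360.2 and 8469 and the peroxidase gene Mpo between 15911 and 27884. Cd3e, Cd4 and Cd8a of T cells, Hba-a1 of red cells, Pf4 of platelets, Cpa3 of mast cells, Ncr1 of natural killer cells and Col1a1 of fibroblasts all lay below the median log2 level of all genes, 7.77. Epcam of epithelial cells, with mean log2 levels of 8.38 in B117P and 8.28 in B117H, and Pecam1 of endothelial cells, with 8.67 and 8.72, lay above it. In bulk RNA, fewer cells of a type and less RNA per cell cannot be told apart.

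By limma at an adjusted p under 0.05, 1712 genes were called, which is 9.41% of all genes tested. Of these, 861 rose (4.73%) and 851 fell (4.68%) in B117H. At least 2-fold changes were shown by 138 genes that rose (0.759%) and 170 that fell (0.934%). A change of at least 8-fold was left for 5 that rose and 7 that fell. The 3 arrays of B117H lay entirely above those of B117P for 13.7% of all genes and entirely below for 12.5%, 26.2% in all. The median change over all genes was -0.01 on the log2 scale. The count of genes that rose depended on single arrays: it was 562 without array C of B117P and 538 without array C of B117H. All changes below are log2 values of B117H minus B117P, with the standard error (SE) of the fit. The share of a list that was called, given with the lists, is to be read beside the 9.41% called over all genes.

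**Figure D1:**
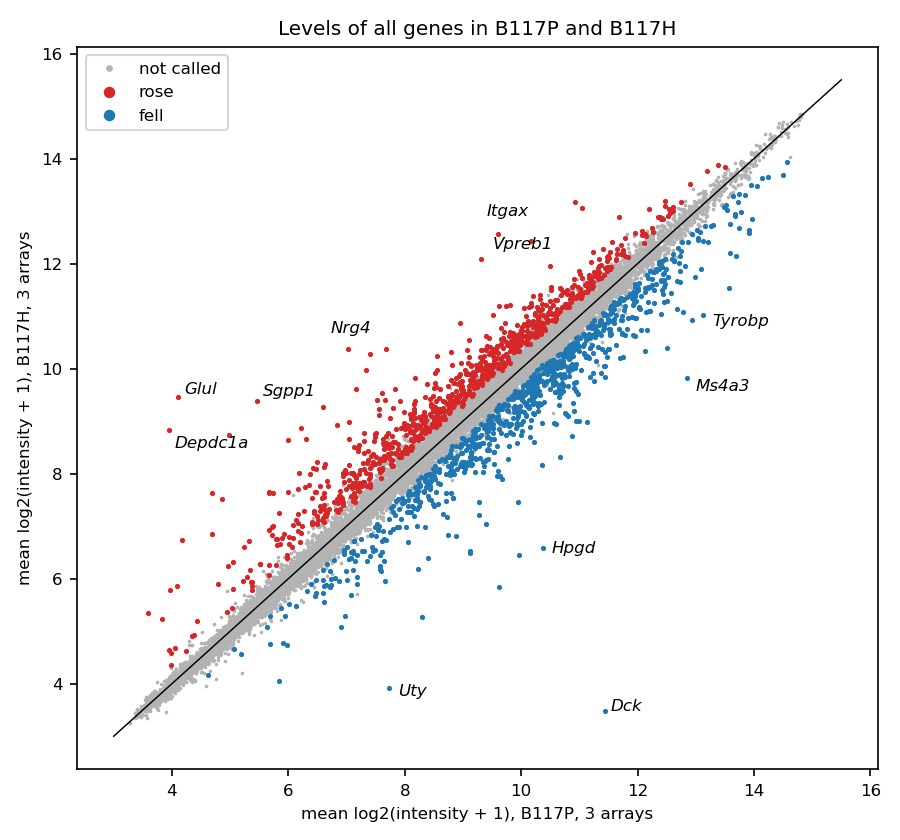
Mean log2(intensity + 1) of each of 18193 genes in B117P (horizontal axis) and in B117H (vertical axis), each the mean of 3 arrays. Red points are the 861 genes that rose, blue points the 851 that fell, grey points the genes not called, and the line marks equal levels; Dck lies far below the line, near the bottom of the scale in B117H.

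Dck, which encodes deoxycytidine kinase, had the largest change of all genes tested. Its representing probe set measured 2287, 3158 and 2935 in B117P and 9.39, 11.2 and 9.91 in B117H. The B117H arrays were close to the lowest intensity of any array, 7.65, so that the change of -7.96 (SE 0.12, adjusted p = 7.73e-13) has no exact size. The next brightest probe set of Dck also fell, by 6.43 (adjusted p = 1.52e-10). The third measured means of 246 intensity units in B117P and 225 in B117H, and its change of -0.12 was not called (adjusted p = 0.913).

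The other kinases of nucleoside salvage changed by 0.49 or less in either direction. Of 15 measured members of this list, 2 rose and 1, Dck, fell (20% called). Dguok, the mitochondrial deoxyguanosine kinase, measured 623, 556 and 559 in B117P and 802, 823 and 814 in B117H. The lines did not overlap, and the rise was 0.49 (SE 0.09, adjusted p = 0.00589). Tk2, the mitochondrial thymidine kinase, rose by 0.34 (SE 0.10, adjusted p = 0.0479), from a mean of 169 to 214 intensity units. Tk1, the thymidine kinase of dividing cells, measured 2012, 1718 and 1886 in B117P and 1346, 1538 and 1420.2 in B117H, and its change of -0.38 (SE 0.12, adjusted p = 0.0744) was not called, although no B117H array reached a B117P array. The uridine-cytidine kinase genes Uck1, Uck2 and Uckl1 changed by 0.19, -0.17 and 0.28, and Adk, the adenosine kinase gene, by -0.03, none of them called. Cmpk1, whose enzyme adds the next phosphate to deoxycytidine monophosphate, changed by -0.04 (SE 0.09, adjusted p = 0.963), and its mitochondrial relative Cmpk2 by 0.04. The nucleoside diphosphate kinase genes Nme1, Nme2, Nme4, Nme6 and Nme7 changed by -0.09, -0.08, -0.13, -0.40 and 0.15, with adjusted p-values of 0.106 to 0.866. The call of Tk2 ended in several alternatives, among them without array B or C of B117P or any array of B117H (adjusted p = 0.102 to 0.198) and in the fit of the 6 arrays of the pair (0.0859), and that of Dguok without all B arrays (adjusted p = 0.0941) or all C arrays (0.188). With the replicate letter as a block, Tk1 (adjusted p = 0.0424) and Nme6 (0.0293) were called as well. The limma fit also called Tk1 with brighter probe sets only (adjusted p = 0.04245) and with an intensity trend and robust priors (0.0457). It was called too with the probe sets of a gene averaged (0.0367) and without array B of B140H (0.0385).

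The transporters, deaminases and reductase genes of drug handling held 4 called genes, to be read beside the 9.41% called over all genes. Limma called 0 of the 5 measured nucleoside transporters, whose changes ran from -0.39 to 0.18, and 1 had an unadjusted p under 0.05. Of 12 deaminases and nucleotidases, 1 rose (8.33% called), Nt5c3b, a nucleotidase, by 0.70 (SE 0.16, adjusted p = 0.0161). Of 12 genes of ribonucleotide reductase and pyrimidine synthesis, 2 rose and 1 fell (25% called). Rrm2, the regulated subunit of ribonucleotide reductase, measured 5452, 6773 and 5639 in B117P and 8223, 8230.5 and 8740.2 in B117H. The lowest B117H array stood above the highest B117P array, and the rise was 0.50 (SE 0.10, adjusted p = 0.00567). Tyms, the thymidylate synthase gene, rose by 0.67 (SE 0.12, adjusted p = 0.00361) and Ctps2, a synthase of cytidine triphosphate, fell by 0.42 (SE 0.09, adjusted p = 0.0112). The calls in this group were not firm. The call of Nt5c3b ended without array B or C of either line (adjusted p = 0.0512 to 0.0826), that of Rrm2 without all A or all C arrays (0.0908 and 0.223), and those of Tyms and Ctps2 when the probe sets of a gene were averaged (0.221 and 0.229).

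Of the transporters that pump drugs out of cells, those that changed fell. Of 13 measured ABC efflux transporters, 0 rose and 3 fell (23.1% called). Abcc2, an exporter of conjugated compounds, measured 219, 177 and 211 in B117P and 77.2, 55.0 and 53.9 in B117H. Every B117H array lay below every B117P array, and Abcc2 fell by 1.71 (SE 0.13, adjusted p = 6.11e-06). Abcc4, an exporter of nucleotide analogues and cyclic nucleotides, fell by 0.66 (SE 0.10, adjusted p = 0.00107) and Abcc1, which exports glutathione conjugates, by 0.60 (SE 0.09, adjusted p = 0.000948). The other 10 changed by -0.27 to 0.33. With all C arrays left out, Abcc4 was no longer called (adjusted p = 0.0572).

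The 15 largest rises and 15 largest falls named here were taken among called genes whose arrays do not overlap between the lines, so their separation comes from that choice. The largest rise was that of Glul, the glutamine synthetase gene. It measured 19.2, 13.4 and 16.7 in B117P and 644, 762 and 711 in B117H, so that it stood near the bottom of the scale in every B117P array and far above it in every B117H array. The rise was 5.35 (SE 0.16, adjusted p = 1.23e-09), and the second probe set of the gene rose by 2.22. Depdc1a, a gene of dividing cells, measured 14.6, 15.7 and 13.2 in B117P and 436, 381 and 573 in B117H. Its rise of 4.89 (SE 0.18, adjusted p = 7.58e-09) was the next largest. Sgpp1, whose enzyme dephosphorylates sphingosine 1-phosphate, measured 42.1, 43.7 and 44.0 in B117P and 563, 670.1 and 780.5 in B117H. It rose by 3.91 (SE 0.19, adjusted p = 8.97e-08), and its other probe sets by 4.03 and 0.89. Nrg4, a growth factor of the epidermal growth factor family, measured 127, 130.3 and 132 in B117P and 1108, 1475 and 1425 in B117H. The lines were far apart and the arrays of each close together, and Nrg4 rose by 3.34 (SE 0.11, adjusted p = 2.72e-09). Gm4371, a predicted gene named after its values were seen and left out of the 15, is the other gene that rose at least 8-fold, by 3.75 (SE 0.13, adjusted p = 3.42e-09). Values near the bottom of the scale are compressed, so the sizes for Glul and Depdc1a are not exact.

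Itgax, the integrin CD11c of dendritic cells and macrophages, measured 672, 810.3 and 862 in B117P and 5308, 6097 and 6825 in B117H. The rise was 2.96 (SE 0.13, adjusted p = 5.21e-08). Slc36a4, an amino acid transporter, rose by 2.95 (SE 0.16, adjusted p = 2.49e-07) and Acss2, an acetyl-CoA synthetase, by 2.87 (SE 0.24, adjusted p = 1.05e-05). Vpreb1, a chain of the surrogate light chain of pre-B cells, measured 391, 862 and 745 in B117P and 3549.8, 4836 and 4768 in B117H. Array A of B117P was the lowest of its line, and the rise was 2.78 (SE 0.28, adjusted p = 4.82e-05). Lpcat2, an acyltransferase of phospholipids, rose by 2.68 (SE 0.16, adjusted p = 5.72e-07). Bpifc, of a family of lipid-binding proteins, rose by 2.66 (SE 0.19, adjusted p = 2.4e-06), Camk1d, a calmodulin-dependent kinase, by 2.66 (SE 0.16, adjusted p = 6.32e-07), and Penk, the precursor of enkephalin peptides, by 2.64 (SE 0.19, adjusted p = 2.8e-06). Pcgf6, a subunit of a polycomb complex, rose by 2.64 (SE 0.13, adjusted p = 1.33e-07) and Ninl, a centrosomal protein gene, by 2.56 (SE 0.20, adjusted p = 6.66e-06).

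Among the falls behind Dck, Uty was the largest, by 3.82 (SE 0.18, adjusted p = 7.99e-08). This demethylase gene of the Y chromosome measured 189, 228 and 222 in B117P and 14.2, 13.5 and 14.5 in B117H. A second probe set fell by 0.98 (adjusted p = 0.00174), and the changes of the other two, -0.36 and -0.51, were not called. Uty was 1 of 9 measured genes of the Y chromosome and the single one called. Eif2s3y and Kdm5d, chosen here after their values were seen, changed by -0.02 and 0.00, and Eif2s3y stood at 14.9 to 15.9 intensity units in both lines, near the bottom of the scale. Hpgd, which inactivates prostaglandins, measured 955, 1403 and 1764 in B117P and 85.2, 88.1 and 115 in B117H. It fell by 3.79 (SE 0.23, adjusted p = 6.44e-07), and its second probe set fell by 1.03. Igsf6, a membrane protein gene of myeloid cells, measured 736, 800.0 and 819 in B117P and 51.8, 58.0 and 60.2 in B117H and fell by 3.77 (SE 0.17, adjusted p = 5.21e-08). Hpse, the heparanase gene, measured 795, 1100.2 and 1137 in B117P and 78.4, 93.8 and 87.8 in B117H and fell by 3.51 (SE 0.17, adjusted p = 7.99e-08). In each of these genes all B117H arrays were below all B117P arrays, as the choice of the genes required.

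Nsd1, a methyltransferase for histone H3, fell by 3.04 (SE 0.14, adjusted p = 8.52e-08) at its representing probe set. Its arrays measured 309, 329 and 307 in B117P and 37.7, 31.2 and 44.5 in B117H, while its other probe sets changed by -0.85, 0.07 and -0.30, of which the first was called (adjusted p = 0.000479). Hmgn3, a nucleosome-binding protein gene, fell by 2.48 (SE 0.21, adjusted p = 1.37e-05), and its second probe set by 2.51. Rab34, a small GTPase gene, fell by 2.35 (SE 0.12, adjusted p = 2.3e-07), Cd9, a tetraspanin of the cell surface, by 2.34 (SE 0.15, adjusted p = 1.11e-06), and Cutc, a gene tied to copper handling, by 2.15 (SE 0.10, adjusted p = 5.42e-08). F13a1, a clotting factor subunit made by monocytes, measured 309, 768 and 722 in B117P and 87.2, 84.2 and 106 in B117H. Array A of B117P was the lowest of its line, and the gene fell by 2.58 (SE 0.34, adjusted p = 0.000351). Psph and Ifitm1, described with their groups below, complete the 15 largest falls, in which the smallest size was 2.15 and the highest adjusted p 0.000351.

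**Figure D2:**
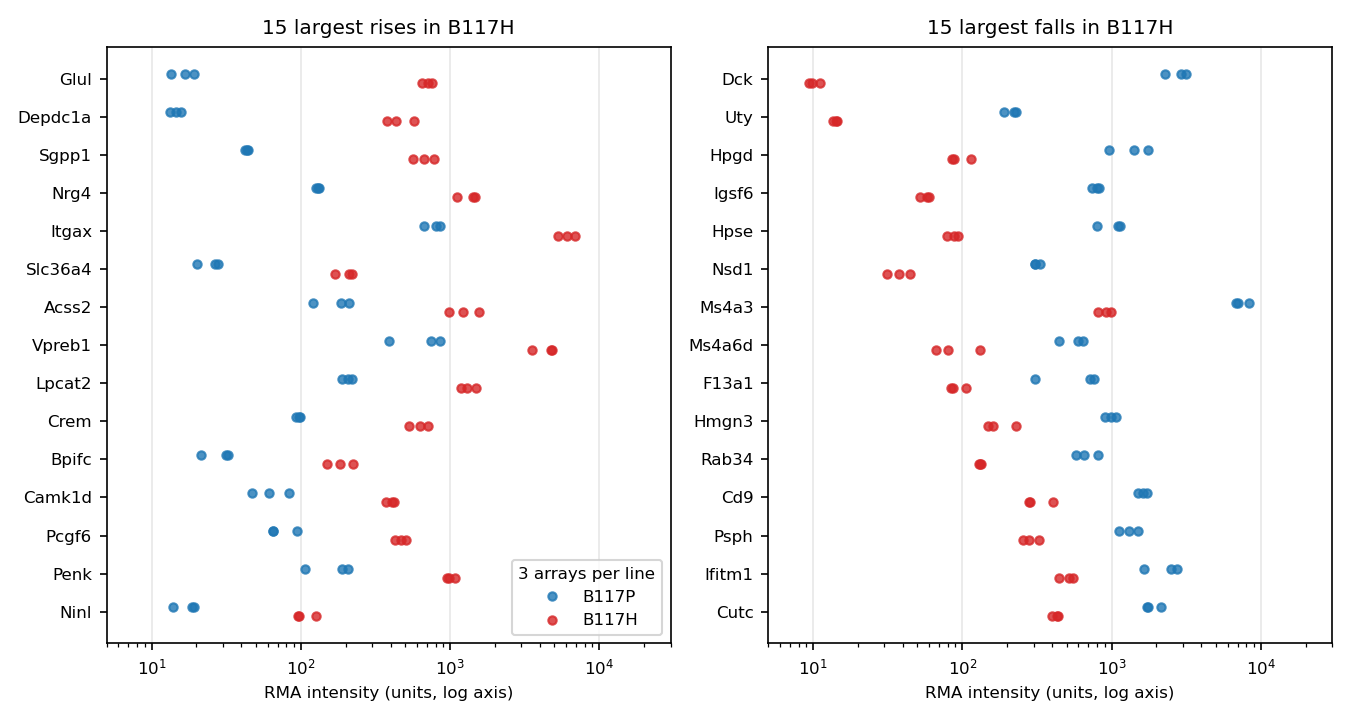
RMA intensity (log axis, intensity units) in each of the 3 B117P arrays (blue) and 3 B117H arrays (red) for the 15 genes with the largest rise (left) and the 15 with the largest fall (right). The genes were chosen so that the 3 arrays of one line lie entirely on one side of the other's, and predicted genes were left out; Glul and Depdc1a in B117P and Dck and Uty in B117H lie below 20 intensity units.

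The primary granules are filled by myeloblasts and promyelocytes with proteases and peroxidase, and the list of these genes holds membrane and other proteins of the same cells as well. Of 14 measured members, 0 rose, 8 fell and 6 were not called (57.1% called). A positive change was shown by 3, and the median change was -0.58, beside -0.01 over all genes. The largest falls were those of Igsf6, Hpse and Ms4a3, of which Igsf6 and Ms4a3 encode membrane proteins. Ms4a3, a membrane protein gene of granulocyte and monocyte progenitors, measured 8384, 7035 and 6822 in B117P and 988, 919 and 816 in B117H and fell by 3.03 (SE 0.15, adjusted p = 1.66e-07). Elane, the neutrophil elastase gene, measured 1440.5, 2158 and 1694 in B117P and 683, 505 and 512 in B117H. It fell by 1.63 (SE 0.25, adjusted p = 0.0013), and no arrays of the lines overlapped. Of the other granule proteases, named here after their values were seen, Prtn3, proteinase 3, fell by 0.78 (SE 0.13, adjusted p = 0.00187) and Ctsg, cathepsin G, by 0.51 (SE 0.11, adjusted p = 0.0105). The call of Ctsg ended without array B or C of B117P (adjusted p = 0.0521 and 0.0572). Gstm1, a glutathione transferase gene, fell by 1.2 (SE 0.18, adjusted p = 0.000852). Mpo, the peroxidase gene, measured 23066 to 27884 in B117P and 15911 to 17502 in B117H, and its change of -0.59 was not called (adjusted p = 0.358). It was called in a fit of the 6 arrays of the pair alone (adjusted p = 0.0120) and without array A of B140H (0.0233), but in no other alternative. Of 28 genes of the later neutrophil granules, 0 rose and 3 fell (10.7% called, beside 9.41% of all genes). S100a8 fell by 1.83 (adjusted p = 0.0372), Hp by 1.61 (SE 0.16, adjusted p = 4.05e-05) and Cyba by 0.43 (adjusted p = 0.0366). Of these, the haptoglobin gene Hp measured 992, 1151 and 1473 in B117P and 402, 362 and 405 in B117H. The count of late granule genes that fell was 1 without array B or C of B117H, or array B or C of B140P. S100a8, a calcium-binding protein gene, measured 380.0, 69.9 and 62.9 in B117P and 36.4, 31.3 and 30.5 in B117H, and without the high array A of B117P its change was -1.0. Its call ended without any array of B117H (adjusted p = 0.0790 to 0.117), and that of Cyba without array A or C of B117P or array B or C of B117H (0.125 to 0.160). The fit of the 6 arrays of the pair also ended the calls of S100a8 (adjusted p = 0.133) and Cyba (0.1003).

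Monocyte and macrophage genes fell more often than they rose. Of 42 measured members, 2 rose and 13 fell (35.7% called, median -0.28), and 8 fell without array C of B117P or array B of B117H. Without array A of B117P or array B or C of B117H 1 rose. Tyrobp, the signalling adaptor DAP12 of myeloid receptors, measured 8392, 9398 and 9100.4 in B117P and 2212, 1695 and 2384 in B117H. It fell by 2.11 (SE 0.12, adjusted p = 4.46e-07), the highest B117H array lying far below the lowest B117P array. Ms4a6d, another Ms4a membrane protein, fell by 2.63 (SE 0.21, adjusted p = 8.81e-06) and Lyz2, a lysozyme gene, by 1.13 (SE 0.14, adjusted p = 0.000229). Against this direction, Adgre1, the macrophage receptor F4/80, measured 152, 189.5 and 214 in B117P and 823, 499 and 750.3 in B117H. It rose by 1.87 (SE 0.24, adjusted p = 0.000348). Csf1r, the macrophage growth factor receptor gene, was not called (-0.55, adjusted p = 0.527), except in the fit of the 6 arrays of the pair alone (adjusted p = 0.0478). The summed intensity of the 42 genes was 99935 to 111080 per array in B117P and 68817 to 76687 in B117H.

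Of the 13 measured genes of the Ms4a family, a cluster of related membrane proteins, 0 rose and 7 fell (53.8% called). Beside Ms4a3 and Ms4a6d they included Ms4a6b (-0.97), Ms4a4b (-0.92) and Ms4a6c (-0.75), whose calls each ended without array B or C of either line (adjusted p = 0.0519 to 0.109). Without array B or C of either line the count that fell was 3. Of 36 Fc, Toll-like and lectin receptor genes, 1 rose and 10 fell (30.6% called, median -0.15). Trem3, an activating receptor that signals through the Tyrobp protein, measured 781, 878 and 989 in B117P and 279.8, 284 and 377 in B117H and fell by 1.5 (SE 0.13, adjusted p = 1.39e-05). Its lines did not overlap. Fcgr3, a receptor for immunoglobulin G, fell by 0.95 (SE 0.14, adjusted p = 0.000676), and Ly86, which joins a Toll-like receptor relative in the endotoxin response, by 0.87 (SE 0.10, adjusted p = 0.000125). Without array C of B117P or array A of B117H 4 fell, without array B of B117H 5 and without array B of B117P 6.

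Of 48 transcription factors of myeloid and stem cells, 1 rose and 6 fell (14.6% called, beside 9.41% of all genes). Cebpb, which drives granulocyte and macrophage genes, measured 720.0, 846 and 771 in B117P and 288, 188 and 346 in B117H and fell by 1.54 (SE 0.19, adjusted p = 0.000219). Gfi1, a repressor needed for neutrophils, measured 329.8, 566 and 400.1 in B117P and 119.9, 152 and 164 in B117H and fell by 1.54 (SE 0.20, adjusted p = 0.000316). Irf8, the factor of monocyte and dendritic cell fate, measured 5546, 5319 and 5785 in B117P and 2815, 2689 and 2678 in B117H and fell by 1.02 (SE 0.12, adjusted p = 0.000134). All 3 separated the lines without overlap. Id1, an inhibitor of helix-loop-helix factors, fell by 1.22 (SE 0.18, adjusted p = 0.00084). The myeloid factor gene Cebpa (-0.14, adjusted p = 0.653) and the progenitor factor gene Myb (0.20, adjusted p = 0.441), named as markers, were not called.

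Several genes of early B cells were higher, while most of their list was not called. Of 31 measured B lymphoid genes, 7 rose, 2 fell and 22 were not called (29% called), while the median change was 0.03. Without any array of B117P, array B of B117H or array B of B140P 1 fell. Dntt, which adds nucleotides at antigen receptor joints, measured 1088, 3437 and 2568 in B117P and 5988, 9850.3 and 10462 in B117H. Array A was the lowest in both lines, and the rise was 2.0 (SE 0.33, adjusted p = 0.00216), a call that was lost with all C arrays left out (adjusted p = 0.0736). Rag2, a subunit of the recombinase, measured 67.4, 75.1 and 72.2 in B117P and 213, 297 and 265 in B117H and rose by 1.82 (SE 0.18, adjusted p = 4.9e-05). Blnk, an adaptor of B cell receptor signalling, measured 74.2, 108 and 90.1 in B117P and 215, 403 and 304 in B117H and rose by 1.72 (SE 0.22, adjusted p = 0.000341). Vpreb1 led the list. Rag1 (0.53) and Igll1 (0.15) of the same list, named after their values were seen, were not called. Cd24a, a surface protein gene of B cell precursors and other immature cells, went the other way and measured 11156, 12606 and 12788 in B117P and 2434, 3109.7 and 3435 in B117H. It fell by 2.04 (SE 0.23, adjusted p = 0.000117). The other fall was that of Cd79b (-0.75), named after its value was seen.

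Receptors for cytokines moved in both directions. Of 36 measured members, 6 rose and 5 fell (30.6% called). The count that rose was 3 without array A or B of B117P, array B or C of B117H, or array C of B140P. Il18r1, a chain of the interleukin 18 receptor, measured 985, 1371 and 1109.7 in B117P and 5089, 5767 and 5807 in B117H. Its rise of 2.28 (SE 0.14, adjusted p = 6.44e-07) left the lines far apart. Il1r1, the interleukin 1 receptor gene, measured 386, 501 and 461 in B117P and 929, 1097 and 1196 in B117H and rose by 1.26 (SE 0.12, adjusted p = 4.12e-05). Il7r, the interleukin 7 receptor of lymphoid precursors, rose by 1.77 (SE 0.30, adjusted p = 0.00239), a call that ended without all B arrays (adjusted p = 0.0791). Csf2ra, a chain of the receptor for the granulocyte and macrophage growth factor GM-CSF, measured 2879.8, 2939 and 2977 in B117P and 1407, 1172 and 1408 in B117H and fell by 1.15 (SE 0.13, adjusted p = 0.000107). Ifnar2, a chain of the type I interferon receptor, measured 2195, 2188 and 2247 in B117P and 1183, 1187 and 1228 in B117H and fell by 0.88 (SE 0.08, adjusted p = 2.7e-05). The 3 arrays of each line lay close together for Csf2ra and Ifnar2, whose other probe sets were not called.

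Lists of other cell types that a culture could hold had 3.7% to 8.7% of their members called, beside 9.41% of all genes. Most of their members lay below the median level. Of the 1712 calls, 1535 were also made in a fit of the brighter probe sets alone. The share over all genes is thus no matched background for lists of dimmer or of brighter genes. Of 27 T and natural killer cell markers, 0 rose and 1 fell, Cd28, by 1.32 (SE 0.23, adjusted p = 0.00297), a call that ended without all B arrays (adjusted p = 0.142). Of 23 erythroid and megakaryocyte markers, 0 rose and 2 fell, Selp (-0.82) and Vwf (-0.55), both lost without array B or C of B117P or array A or B of B117H (adjusted p = 0.0652 to 0.108), and Selp also in the fit of the 6 arrays of the pair (0.0770). Of 22 stromal, endothelial and epithelial markers, 1 rose and 0 fell, Pdgfrb (1.07), which was lost without all B arrays (adjusted p = 0.0748). Of 14 mast cell and basophil markers 0 rose and 1 fell, Ms4a2 (-0.42), which was lost without any array of B117P or array B or C of B117H (adjusted p = 0.0893 to 0.178). The summed intensity per array of the T and natural killer list was 7612 to 10678 in B117P and 6643 to 7525 in B117H, and that of the erythroid and megakaryocyte list 13636 to 14288 in B117P and 11048 to 12145 in B117H. Both sums were lower in B117H without overlap. The mast cell and basophil sum, 4412 to 5023 in B117P and 5045 to 5667 in B117H, was higher without overlap, and the stromal sum overlapped, with 2658 to 3089 and 2863 to 3121. Above the median level of all genes were 3 of the 27 T and natural killer markers in B117P and 4 in B117H, 4 of the 23 erythroid ones in both, 4 and 5 of the 22 stromal ones and 5 of the 14 mast cell ones in both. The part of such cells in the results was not tested.

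Enzymes of cholesterol synthesis rose more often than they fell. Of 18 measured members, 8 rose and 1 fell (50% called), 15 had a positive change, and the median was 0.47. Mvd, which makes the isoprene unit from mevalonate diphosphate, measured 1040.1, 878 and 781 in B117P and 2332, 2272 and 2515 in B117H. Every B117H array lay above every B117P array, and the rise was 1.41 (SE 0.16, adjusted p = 0.000103). Fdft1, squalene synthase, the first enzyme that leads to sterols alone, measured 1212, 1362 and 1285 in B117P and 2671, 2654 and 2789.8 in B117H and rose by 1.07 (SE 0.16, adjusted p = 0.00121). Cyp51, which removes a methyl group from lanosterol, measured 2095, 2022 and 2058 in B117P and 3526, 3554 and 3569.7 in B117H and rose by 0.79 (SE 0.13, adjusted p = 0.00184). Pmvk, the kinase of phosphomevalonate, rose by 0.71 (SE 0.12, adjusted p = 0.00203). The member that fell was Ggps1, which makes geranylgeranyl diphosphate on a side branch of the pathway and measured 411, 317 and 305 in B117P and 234, 161 and 158 in B117H. Its change was -0.91 (SE 0.20, adjusted p = 0.0149). Without array C of B117H 5 members rose. The call of Cyp51 ended without all B arrays (adjusted p = 0.0566), that of Pmvk without all C arrays (0.1096) and that of Ggps1 without array A of B117P or array B or C of B117H (0.0655 to 0.0750).

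Synthesis of cholesterol is controlled by SREBP factors, which bind sterol response elements beside sites for the factors NF-Y (CCAAT) and Sp1 (GGGCGG). The promoters of Mvd, Cyp51 and Ggps1, from 250 bases before to 50 after the start, are shown because the first 2 genes rose and the third fell. They are RefSeq sequences of GRCm38.p6, on the minus strand, at chr8:122443373-122443672, chr5:4104648-4104947 and chr13:14063439-14063738, with CCAAT and GGGCGG in capitals. A match on the other strand of CCAAT reads ATTGG.
Mvd: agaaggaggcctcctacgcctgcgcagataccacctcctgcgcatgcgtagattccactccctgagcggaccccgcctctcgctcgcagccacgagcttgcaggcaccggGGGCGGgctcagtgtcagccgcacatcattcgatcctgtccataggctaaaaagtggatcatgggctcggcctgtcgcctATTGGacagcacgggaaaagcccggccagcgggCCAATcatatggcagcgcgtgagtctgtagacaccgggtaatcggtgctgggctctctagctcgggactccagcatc
Cyp51: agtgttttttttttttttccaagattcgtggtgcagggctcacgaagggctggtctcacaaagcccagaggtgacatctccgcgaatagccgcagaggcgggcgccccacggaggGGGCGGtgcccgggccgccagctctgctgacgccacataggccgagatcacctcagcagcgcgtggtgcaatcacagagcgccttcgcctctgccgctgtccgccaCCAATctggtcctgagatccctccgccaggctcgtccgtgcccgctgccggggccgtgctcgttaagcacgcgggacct
Ggps1: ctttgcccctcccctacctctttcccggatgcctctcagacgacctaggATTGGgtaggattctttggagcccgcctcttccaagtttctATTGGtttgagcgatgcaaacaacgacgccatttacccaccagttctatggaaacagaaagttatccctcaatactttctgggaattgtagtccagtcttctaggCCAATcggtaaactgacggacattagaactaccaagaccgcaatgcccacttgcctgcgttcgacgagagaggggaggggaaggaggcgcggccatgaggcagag
On both strands, CCAAT was present in 37.4% of the 32851 promoters of this length in the table, in 6 of the 7 called cholesterol genes that had an entry and in 14 of all 15 measured ones. GGGCGG stood in 35.7% of all promoters, in 5 of the 7 and in 13 of the 15. Ggps1, which fell, holds 3 copies of CCAAT and none of GGGCGG in this window. Pmvk, which rose and is not shown, likewise holds CCAAT and no GGGCGG in the first of its 2 listed promoters. The sterol response element TCACNCCAC was found in 1.24% of all promoters and in 1 of the 7, that of Hmgcs1, named here after its values were seen. Hmgcs1 rose by 0.58 (SE 0.13, adjusted p = 0.0145), a call that ended without array B (adjusted p = 0.0609) or C (0.0686) of B117H and in the fit of the 6 arrays of the pair (0.0581). The promoter of Fdft1 was not matched in the table. These matches are descriptions of letters and not of bound sites.

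Genes that move and sense sterols changed less uniformly. Of 20 measured members, 5 rose and 2 fell (35% called), and 3 rose without array C of B117H. Stard4, which carries cholesterol between membranes, measured 1149, 1178 and 1138 in B117P and 2461, 2402 and 2419 in B117H and rose by 1.07 (SE 0.15, adjusted p = 0.00059). Nceh1, which frees cholesterol from its esters, rose by 0.90 (SE 0.11, adjusted p = 0.000158). Mylip, the ligase that sends the low density lipoprotein receptor to degradation, measured 1360.3, 1594 and 1860.4 in B117P and 779.5, 648 and 861 in B117H. It fell by 1.07 (SE 0.13, adjusted p = 0.000256). Of 38 genes of fatty acid synthesis and desaturation, 4 rose and 4 fell (21.1% called), and 7 rose without array B of B117P. Lpin1, a phosphatidate phosphatase, measured 443, 574 and 343 in B117P and 1254, 1115 and 1507 in B117H and rose by 1.53 (SE 0.19, adjusted p = 0.000208), while Acss2 and Lpcat2 rose as given above. Scd2, a desaturase, measured 26329, 23490.1 and 23558 in B117P and 15696, 14897 and 16663 in B117H. It fell by 0.63 (SE 0.10, adjusted p = 0.00109) and Hacd2, of fatty acid elongation, by 0.86 (SE 0.09, adjusted p = 5.5e-05).

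Of 36 sphingolipid genes, 2 rose and 5 fell (19.4% called). Smpdl3b, a phosphodiesterase of the membrane, measured 882, 693 and 878 in B117P and 267, 224 and 222 in B117H and fell by 1.78 (SE 0.13, adjusted p = 4.14e-06). Sptlc1, a subunit of the enzyme that starts sphingolipid synthesis, measured 1097, 866 and 974 in B117P and 458, 507 and 469 in B117H and fell by 1.03 (SE 0.10, adjusted p = 3.15e-05). Spns2, which exports sphingosine 1-phosphate, rose by 0.90 (SE 0.18, adjusted p = 0.00637), a call lost with all A (adjusted p = 0.0767) or all C (0.0830) left out. Without array B of B117P 2 members fell, and without any 1 array of B117H 3 fell. Of 29 prostaglandin and leukotriene genes, 4 rose and 2 fell (20.7% called). Ptgs2, the inducible cyclooxygenase that starts prostaglandin synthesis, measured 418, 941 and 613 in B117P and 173, 111 and 168 in B117H. It fell by 2.07 (SE 0.27, adjusted p = 0.000389), as did Hpgd, which ends prostaglandin action. Cyp4f18, an oxidase of leukotriene B4, rose by 1.32 (SE 0.16, adjusted p = 0.000245). Without array A or C of B117P or array B of B117H 2 members rose.

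Interferon response genes fell more often than they rose. Of 50 measured members, 1 rose and 16 fell (34% called, median -0.19), and 10 fell without array C of B117P or array A of B117H. Ifitm1, a membrane protein that blocks virus entry, measured 1652, 2513 and 2729 in B117P and 522, 443 and 553 in B117H and fell by 2.15 (SE 0.22, adjusted p = 4.72e-05). Rtp4, a chaperone of receptors, measured 1754, 1843 and 2167 in B117P and 498, 580.4 and 693 in B117H and fell by 1.71 (SE 0.28, adjusted p = 0.00179). Cxcl10, a chemokine induced by interferons, measured 239, 372 and 379.9 in B117P and 134, 106 and 142 in B117H and fell by 1.35 (SE 0.16, adjusted p = 0.000187). For Rtp4 and Cxcl10 the lines stayed apart, and for Ifitm1 the choice of the largest falls required it. Usp18, which removes the ubiquitin-like ISG15 and damps interferon signalling, fell by 1.29 (SE 0.19, adjusted p = 0.00103) and Oasl2, of the oligoadenylate synthetase family, by 1.15 (SE 0.16, adjusted p = 0.000717). With all C arrays left out Rtp4 was no longer called (adjusted p = 0.0633), and with all B arrays left out Oasl2 was not (0.05).

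The promoter of Cxcl10 is shown because it holds the interferon-stimulated response element, which interferon-activated factors bind. It is the RefSeq sequence of GRCm38.p6 at chr5:92348840-92349139, minus strand, with this motif in capitals.
Cxcl10: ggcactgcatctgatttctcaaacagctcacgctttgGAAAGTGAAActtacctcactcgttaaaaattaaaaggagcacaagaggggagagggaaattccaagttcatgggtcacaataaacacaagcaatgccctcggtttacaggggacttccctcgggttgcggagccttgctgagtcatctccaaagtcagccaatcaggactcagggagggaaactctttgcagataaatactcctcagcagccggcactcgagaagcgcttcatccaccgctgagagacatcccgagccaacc
The motif starts 213 bases before the start of transcription. Searched on both strands, it was present in 3.44% of all promoters, in 5 of the 13 called interferon genes with an entry and in 21 of all 37 measured ones. Those of Ifitm1 and Oasl2 hold no match in this window, and that of Rtp4 was not matched in the table.

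Genes of amino acid metabolism moved singly. Of 20 serine and one-carbon genes, 1 rose and 3 fell (20% called). Psph, the last enzyme of serine synthesis, measured 1130.3, 1512 and 1310.0 in B117P and 281, 327 and 255 in B117H. It fell by 2.19 (SE 0.13, adjusted p = 6.44e-07). Mtr, methionine synthase, measured 1025, 868 and 933 in B117P and 589.7, 583 and 564 in B117H and fell by 0.70 (SE 0.09, adjusted p = 0.000319). Cth, which makes cysteine, rose by 1.39 (SE 0.27, adjusted p = 0.00572), a call lost with all A (adjusted p = 0.0962) or all C (0.116) left out. Of 19 genes of glutamine and glutamate metabolism, 10.5% were called: 1 rose, Glul, and 1 fell (0 without array A or C of either line). Of 31 amino acid transporters, 3 rose and 0 fell (9.68% called). The shares called in the glutamine and the transporter lists are near the 9.41% of all genes. Behind Slc36a4, Slc1a4, a carrier of small neutral amino acids, measured 158, 224 and 162 in B117P and 389, 380.1 and 489 in B117H and rose by 1.21 (SE 0.15, adjusted p = 0.000205).

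Genes of the cyclic AMP response rose more often than they fell. Of 37 measured members, 6 rose and 1 fell (18.9% called, median 0.14). Without array A or C of B117P or array B or C of B117H 0 fell. Crem, a transcription factor of this pathway, measured 92.7, 98.6 and 96.8 in B117P and 528, 631 and 714 in B117H. It rose by 2.68 (SE 0.13, adjusted p = 1.25e-07) and its second probe set by 1.49, while the other two changed by -0.02 and 0.25 and were not called. Akap12, a scaffold of protein kinase A, measured 316, 275 and 274 in B117P and 633, 671 and 687 in B117H and rose by 1.2 (SE 0.14, adjusted p = 0.00015). Prkacb, a catalytic subunit of that kinase, measured 1309, 1179.9 and 1059.6 in B117P and 2820.2, 2747 and 2496 in B117H and rose by 1.19 (SE 0.11, adjusted p = 2.16e-05). Neither overlapped between the lines. Creb5, a relative of the cyclic AMP response factor CREB, rose by 1.68 (SE 0.35, adjusted p = 0.00887), a call lost with all B (adjusted p = 0.0598) or all C (0.147) left out.

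The DNA replication genes that changed rose, by 0.84 or less. Of 48 measured members, 10 rose and 0 fell (20.8% called), 35 had a positive change, and the median was 0.16. Prim2, the large primase subunit, measured 1429.7, 1795 and 1731 in B117P and 2627, 2868 and 3400.1 in B117H. It rose by 0.84 (SE 0.12, adjusted p = 0.000771). Pole and Pole2, subunits of the leading strand polymerase, rose by 0.71 and 0.57, Gins3, of the helicase complex, by 0.55 and Rfc3, of the clamp loader, by 0.51. These 4 were no longer called with all C arrays left out (adjusted p = 0.0515 to 0.132), and the count that rose was 6 without all A arrays, 2 without all B arrays and 1 without all C arrays. Of 54 DNA repair and checkpoint genes, 5 rose and 4 fell (16.7% called). Xrcc5, the Ku80 subunit of end joining, measured 53, 64.5 and 41.4 in B117P and 125, 140.3 and 116 in B117H and rose by 1.27 (SE 0.15, adjusted p = 0.000136). Tdp1, which frees blocked DNA ends, measured 869, 696 and 761 in B117P and 1304, 1501 and 1323 in B117H and rose by 0.83 (SE 0.13, adjusted p = 0.00166), while Poll, a repair polymerase, measured 699, 488 and 522 in B117P and 324, 291 and 338 in B117H and fell by 0.82 (SE 0.12, adjusted p = 0.000925). Without array C of B117P 3 repair genes rose, and without array C of B117H 2 rose.

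Genes that control cell division moved in both directions. Of 47 mitosis and spindle genes, 2 rose, Depdc1a among them, and 1 fell, so that 6.38% were called, beside 9.41% of all genes. The rises were 1 without array A or C of B117P or array C of B117H, and the falls 0 without array B or C of B117P or any array of B117H. Of 30 G1 cyclins, kinases and inhibitors, 2 rose and 4 fell, and 20% were called. Ccne1, cyclin E1, which starts S phase, measured 1154, 1155 and 949 in B117P and 575, 513 and 582 in B117H and fell by 0.96 (SE 0.11, adjusted p = 0.000144). E2f3, an activator of S phase genes, measured 989, 1049.9 and 1129.7 in B117P and 603, 619.9 and 523 in B117H and fell by 0.86 (SE 0.11, adjusted p = 0.000404). Rbl2, the retinoblastoma relative p130 of resting cells, measured 568, 607 and 564 in B117P and 915, 894 and 994 in B117H and rose by 0.69 (SE 0.08, adjusted p = 0.000235). Skp2, which marks cell cycle inhibitors for degradation, fell by 1.28 (SE 0.21, adjusted p = 0.00198), and was lost with all C arrays left out (adjusted p = 0.0920). Of 31 p53 target genes, 3 rose and 2 fell (16.1% called). The falls were 0 without array B of B117P or array A or B of B117H, and 1 without any other single array of the pair. Of 19 members of the Bcl2 family, 0 rose and 1 fell (5.26% called). Of 31 caspase and death receptor genes, 2 rose and 1 fell (9.68% called, near the share of all genes). In that list 1 rose without array A of B117P or array B or C of B117H, and 0 fell without array A or C of B117P, array A of B140H or any array of B117H or B140P. Casp4, the inflammatory caspase, measured 123, 167 and 155 in B117P and 235, 258 and 274 in B117H and rose by 0.79 (SE 0.13, adjusted p = 0.00218).

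Among 58 histone methylation and polycomb genes, 6 rose and 3 fell, the latter being Uty, Nsd1 and Jarid2. Jarid2, which joins the polycomb complex PRC2, measured 1723, 2090.1 and 1662 in B117P and 930.3, 947 and 894 in B117H and fell by 0.97 (SE 0.10, adjusted p = 4.57e-05). Dnmt3a, a DNA methyltransferase often mutated in human AML, measured 660.2, 570.4 and 684 in B117P and 1127, 1380.1 and 1439.7 in B117H and rose by 1.04 (SE 0.12, adjusted p = 0.000144). Ezh1, a catalytic subunit of PRC2, rose by 0.75 (SE 0.12, adjusted p = 0.0019). The lines were separate in each. The count that rose was 2 without array C of either line and 3 without array A of either line or array B of B117H.

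The remaining lists held a few strong single changes. Of 27 heat shock genes, 1 rose and 1 fell (7.41% called, beside 9.41% of all genes). Dnajb4, a co-chaperone, measured 99.3, 112 and 133 in B117P and 505, 486 and 468 in B117H and rose by 2.08 (SE 0.15, adjusted p = 3.74e-06). Cct5, of the chaperonin that folds actin and tubulin, measured 23798, 22494 and 22971 in B117P and 13319, 13337 and 13102 in B117H and fell by 0.80 (SE 0.08, adjusted p = 6.25e-05). Of 34 unfolded protein response genes, taken with those of amino acid shortage, 2 rose and 1 fell (8.82% called). In that list 1 rose without any array of B117P, array A or C of B117H, or array B or C of B140P or B140H. Of 37 glycolysis and hypoxia genes, 4 rose and 3 fell (18.9% called). Hk3, the hexokinase of myeloid cells, measured 5684, 6003 and 4638 in B117P and 2292, 1794 and 2312 in B117H and fell by 1.35 (SE 0.15, adjusted p = 0.000125). Of 40 glutathione and oxidative stress genes, 4 rose and 4 fell (20% called), with Gsta4 the largest rise, by 1.05 (SE 0.12, adjusted p = 0.000131). Without array C of either line 1 glycolysis gene rose, and without array A or B of B117P 2 rose. For glutathione, 1 gene rose without array A of B117P and 2 without any other single array of the pair. Of 21 iron handling genes, 9.52% were called: 0 rose and 2 fell (1 without array A of B117H).

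Of 36 genes of heparan sulfate and related chains, 2 rose and 4 fell (16.7% called). Beside Hpse, Gusb, a lysosomal glucuronidase, measured 4414, 3938 and 4149 in B117P and 2175, 2525 and 2277 in B117H and fell by 0.84 (SE 0.11, adjusted p = 0.000273), while Hs2st1, a sulfotransferase of heparan sulfate, rose by 0.65 (SE 0.09, adjusted p = 0.000479). Of 28 lysosomal cathepsin and cystatin genes, 1 rose and 7 fell (28.6% called). Ctsz, a cathepsin of macrophages, measured 8737, 8184 and 10065 in B117P and 5495, 5249.9 and 5771 in B117H and fell by 0.70 (SE 0.11, adjusted p = 0.00133). Without array C of B117P 2 members fell, and without array A or B of B117P or array B or C of B117H 3 or 4 fell. Of 29 integrins and adhesion receptors, 4 rose and 4 fell (27.6% called). Itgb5, an integrin of vitronectin binding, measured 1022, 1562 and 1218 in B117P and 560.3, 589 and 726 in B117H and fell by 1.01 (SE 0.14, adjusted p = 0.000694), and its 3 other probe sets fell by 1.51 to 2.31. Itga6, a laminin receptor chain, fell by 0.74 (SE 0.11, adjusted p = 0.000961). Without array A or B of B117P, array B or C of B117H, array B of B140P or array A of B140H 2 members rose.

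Of 34 antigen presentation and dendritic cell genes, 5 rose and 2 fell (20.6% called). The falls were 0 without array B of B117H and 1 without array A or C of B117P, array A or C of B117H or array C of B140P. Beside Itgax, H2-Ob, a chain of the class II modulator H2-O, measured 616, 989 and 809.5 in B117P and 1869, 2199 and 3130.1 in B117H and rose by 1.57 (SE 0.26, adjusted p = 0.00187). Its lines did not overlap. Of 50 cytokine and chemokine genes, 4 rose and 2 fell, with Nrg4 first (12% called, beside 9.41% of all genes). Il16, a lymphocyte attractant, measured 876, 1047 and 784 in B117P and 1467, 1701 and 1827 in B117H and rose by 0.89 (SE 0.12, adjusted p = 0.000607). Without array B of B117P or array B or C of B117H 2 members rose, and 1 fell without array B or C of B117P, array A or B of B140P, array A of B140H or any array of B117H.

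**Figure D3:**
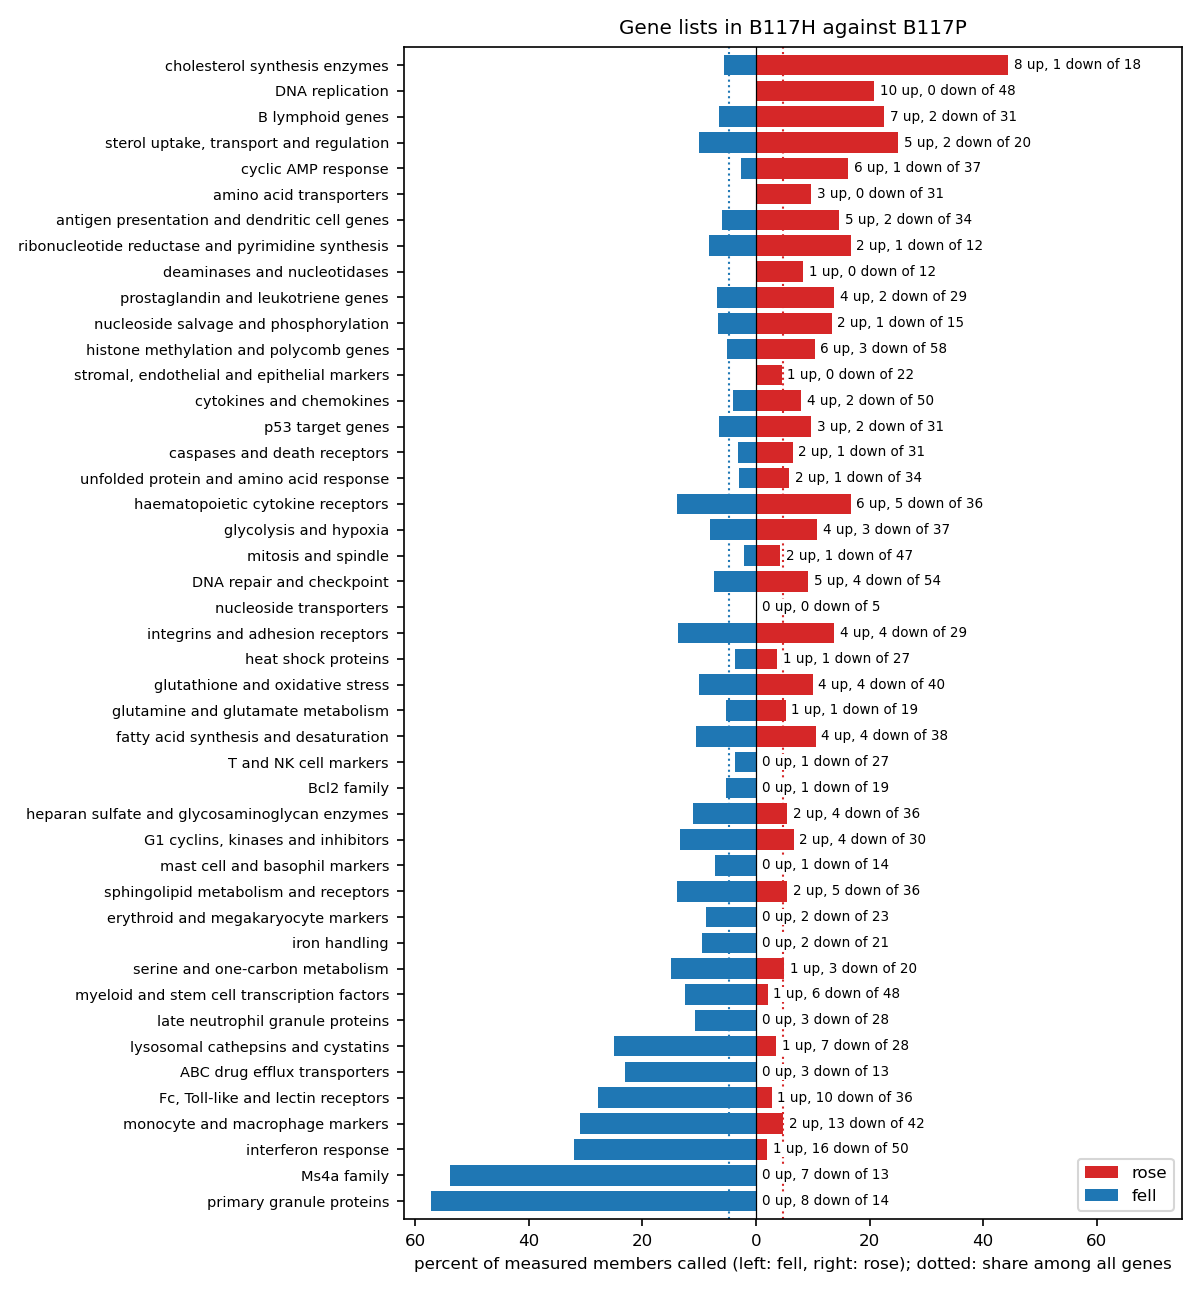
Percent of the measured members of each of 45 gene lists that rose (red, right) or fell (blue, left) in B117H against B117P, with the counts beside the bars; dotted lines mark the shares over all 18193 genes, 4.73% and 4.68%. Of the cholesterol synthesis list 8 of 18 rose, and of the primary granule list 8 of 14 fell.

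Called genes were not spread evenly over the chromosomes (assigned from the RefSeq table of GRCm38.p6). Chromosomes 12, 13 and 16 held 10.5% of the genes and 26.5% of all calls. Of their 1917 genes 453 were called (23.6%), against 7.74% of the genes elsewhere. These chromosomes were picked after their shares of calls, 23.6%, 24.5% and 22.6%, were seen as the highest, so this contrast comes from that choice. Among the other chromosomes the highest shares were 13.5% on chromosome 19 and 12.1% on chromosome 5. The genes of each chromosome except 18 and Y were also split, in their order, into 5 stretches of equal number. On chromosome 12, 143 of 622 genes rose and 4 fell. Among its genes brighter than the median, the median change was 0.37, and it was positive in each stretch, from 0.47 in the first to 0.25 in the last. On chromosome 13, 20 of 702 genes rose and 152 fell. Of the falls 142 lay in the first 3 stretches, with medians of -0.79, -0.69 and -0.46, while the last 2 held the other 10 and had medians of 0.04 and 0.01. On chromosome 16, 9 of 593 genes rose and 125 fell, with a median of -0.33 and negative medians in all stretches. The first stretch of chromosome 15 had 41 falls among 144 genes (median -0.57) and the last stretch of chromosome 19 had 26 among 122 (median -0.36). On chromosome 19 the fourth stretch had 19 falls among 122 genes (median -0.09) and the third 12 (median 0.04). These stretches, too, were picked after their values were seen. Over all chromosomes the brighter genes had a median of 0.02.

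Part of the genes described above lie on chromosomes 12, 13 and 16: Sgpp1, Rrm2, Lpin1, Pole2, Tdp1 and Dnmt3a on chromosome 12, Nsd1, F13a1, Ggps1, Mylip, Mtr, Sptlc1, E2f3, Ly86, Hk3 and Jarid2 on chromosome 13, and Vpreb1, Rtp4, Abcc1, Hacd2, Ifnar2 and Itgb5 on chromosome 16. Of the genes described, the 6 named here on chromosome 12 rose, but Cmpk2, also there, was not called (0.04), and Id2, an inhibitor of helix-loop-helix factors named after its values were seen, fell by 1.14 (SE 0.32, adjusted p = 0.0494), a call that ended without array B or C of B117P or array A or B of B117H (adjusted p = 0.147 to 0.185). The 10 named here on chromosome 13 fell, while Hmgcs1 on the same chromosome rose. On chromosome 16 Vpreb1 rose and the other 5 fell. Of the 8 primary granule genes that fell 0 lay on chromosome 13 or 16, of the 8 cholesterol genes that rose 0 lay on chromosome 12, and of the 16 interferon genes that fell 2 lay on chromosome 13 or 16. Over all genes, 152 of the 851 falls lay on chromosome 13 and 125 on chromosome 16, and 143 of the 861 rises on chromosome 12. With so few genes per list, the counts do not show whether a list departs from these shares. Genes in the stretches of falls on chromosomes 15 and 19, and on chromosome 5 as given below, were not counted here. Dck, Cxcl10 and Oasl2, which fell, lie on chromosome 5, as does Cyp51, which rose. Expression arrays do not measure the number of gene copies, and its part in these levels was not tested.

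**Figure D4:**
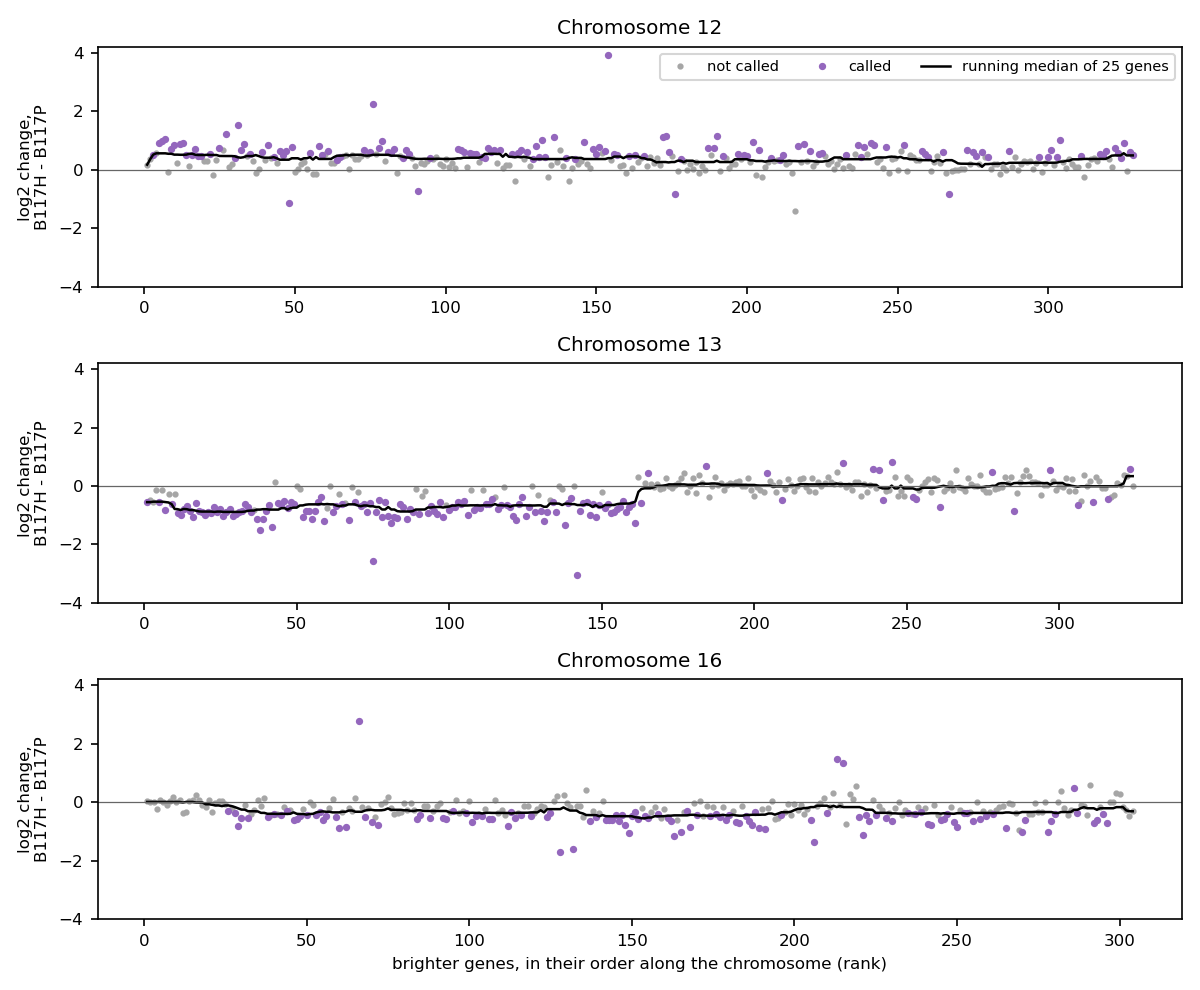
Log2 change of B117H minus B117P for the genes brighter than the median on chromosomes 12, 13 and 16, in their order along the chromosome (rank). Purple points are called genes, grey points are not, and the black line is a running median of 25 genes; it lies above 0 along chromosome 12, below 0 over the early genes of chromosome 13 and below 0 along most of chromosome 16.

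The second pair of lines was used to ask which changes differed between the 2 resistant derivatives. Of the 1712 genes called in B117H, 273 were also called in B140H against B140P, which is 15.9% of the former and 22.9% of the 1194 (6.56% of genes, 2.81% rising and 3.75% falling) called in the latter. Their direction was the same for 107, with 59 rising and 48 falling in both, and opposite for 166. The test of the difference itself called 1896 genes (10.4%; 5.51% more upward and 4.91% more downward in B117H), among them 1068 of the 1712. All 15 of the largest rises in B117H and 14 of the 15 largest falls differed from B140H by this test, into which the changes that chose them enter. The exception was Ifitm1, which changed by -1.48 (adjusted p = 0.00139) in B140H. Psph changed by -1.38 (adjusted p = 6.44e-05) there, with a difference of -0.81 (adjusted p = 0.0177). Dck changed by -3.04 (adjusted p = 1.92e-08) in B140H, with a difference of -4.92 (adjusted p = 2.56e-08).

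For other genes the resistant lines went opposite ways. Hpse changed by 2.44 (adjusted p = 3.21e-06) in B140H, a difference of -5.95 (adjusted p = 3.28e-08). Hmgn3 rose there by 2.67 (adjusted p = 1.51e-05) and F13a1 by 2.03 (adjusted p = 0.0032). Hp, the haptoglobin gene, rose by 3.09 (adjusted p = 3.01e-07) in B140H, against its fall in B117H. Among genes that rose in B117H, Sgpp1, Vpreb1, Crem and Camk1d fell in B140H, with Vpreb1 changing by -1.40 (adjusted p = 0.0114) and Camk1d by -1.45 (adjusted p = 0.000175). Xrcc5 changed by -2.10 (adjusted p = 3.76e-06) there, a difference of 3.36 (adjusted p = 1.32e-06). S100a10, the annexin A2 partner gene, changed by -0.24 (SE 0.15, adjusted p = 0.561) in B117H and was not called, while it changed by -5.47 (adjusted p = 7.29e-10) in B140H. The cholesterol enzymes had a median of 0.10 in B140H, and the test of the difference called 4 of the 18. The primary granule list had 1 rise and 2 falls there and a median of 0.15, and 9 of its 14 members differed. For the interferon list these numbers were 4 rises, 1 fall and a median of 0.07, and 14 of 50 differed. The brighter genes of chromosome 12 had a median of -0.20 in B140H, against 0.37 in B117H.

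**Figure D5:**
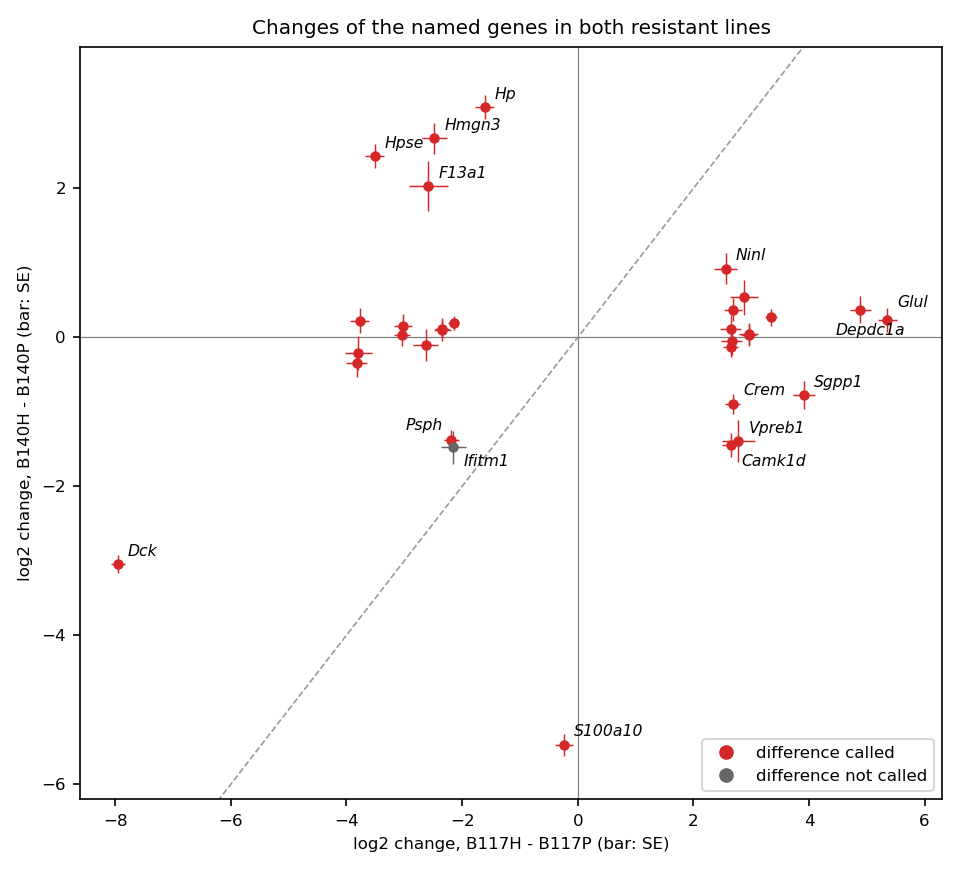
Log2 change of B117H minus B117P (horizontal axis) against that of B140H minus B140P (vertical axis) for the 15 largest rises, the 15 largest falls and the genes with the largest differences between the lines; bars are the SE of the fit and the dashed line marks equal changes. Red points are genes whose 2 changes differed by limma, and Hpse, Hmgn3, F13a1 and Hp lie in the quadrant of falls in B117H and rises in B140H.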

How the data were processed

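Expression was measured on 12 Affymetrix mouse arrays, 3 for each of B117P, B117H, B140P and B140H. The authors deposited a table of intensities on a linear scale, made with RMA per the submitters' processing notes; the labels used here give neither its version nor a genome build. RMA sets all arrays to nearly the same distribution, so a shift shared by most genes cannot be seen. Depth has no meaning for arrays, and their number limits the precision. 0 columns of samples from elsewhere were present.

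Of 45101 probe sets, 64 controls were left out. The other 45037 were taken as log2(intensity + 1) and fitted with limma 3.58.1 (R 4.3.3), with 1 level per line over all 12 arrays and Benjamini-Hochberg adjustment over all probe sets. A gene is called at an adjusted p under 0.05. Exactly 1 symbol was given to 34945 probe sets, several to 932 and none to 9160. Each of 18193 genes stands for its probe set with the highest mean. Symbols came from the platform annotation, and 18032 were found in the RefSeq table of GRCm38.p6, which also gave chromosomes and promoters. "Brighter" genes have a mean log2 level above the median of all genes. The pipeline was tested on simulated data.

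The comparison, the gene lists and the tests were chosen with earlier results of these data known. The text names the 15 largest rises and 15 largest falls among called genes whose arrays do not overlap, the salvage genes, up to 5 called genes with the largest change per list, defining markers, and the 5 largest differences from B140H in each direction. Other genes are named as chosen after their values were seen. Alternatives covered the block by array letter, normalization, filters, pseudocounts, probe set choice, thresholds and left-out arrays.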

Additional observations from a re-analysis of the deposited data

Results flagged for a closer look

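The genes named above were also read in the limma test of the difference between the change in B117H and the change in B140H. It called 102 of the 160 read, at adjusted p-values up to 0.0489. Rag1, Igll1 and Cd79b were not among the 160. Over all genes it called 10.4%, and among the 1712 genes called in B117H it called 1068. Most genes were named for their change in B117H, which enters this difference, so the count is no result about them. Each value in parentheses is the log2 change in B117H minus that in B140H, over 3 arrays per line, and all of the changes use both pairs of lines. No cause of these differences was tested.

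Several genes changed in opposite directions in the resistant lines. Those that fell in B117H and rose in B140H were Hpse (-5.95), Hmgn3 (-5.15), Hp (-4.70), F13a1 (-4.61), Cd24a (-2.92), Cd28 (-2.40), Gfi1 (-2.38), Ms4a6b (-1.92), Irf8 (-1.78), Ccne1 (-1.68), Ifnar2 (-1.39) and Ctsz (-1.30). They include Gfi1 and Irf8 of myeloid fate, the cyclin E1 gene and a chain of the interferon receptor. Those that rose in B117H and fell in B140H were Sgpp1 (4.69), Vpreb1 (4.18), Camk1d (4.11), Dntt (3.91), Crem (3.57), Xrcc5 (3.36), Creb5 (3.29) and Il16 (1.41). Both Vpreb1 and Dntt belong to early B cells, and Xrcc5 to DNA end joining.

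Others moved the same way in both lines by different amounts. Dck (-4.92), Smpdl3b (-0.93) and Psph (-0.81) fell in both, more in B117H, and Ninl (1.63) rose in both. In contrast, S100a10 (5.23) and Mpo (1.82) fell in B140H and were not called in B117H.

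A further 34 genes rose in B117H and were not called in B140H. Of the largest rises these were Glul (5.11), Depdc1a (4.52), Gm4371 (3.48), Nrg4 (3.07), Itgax (2.92), Slc36a4 (2.91), Pcgf6 (2.78), Bpifc (2.71), Penk (2.53), Acss2 (2.33) and Lpcat2 (2.31). Of immune receptors and lymphoid genes they were Il18r1 (2.67), Blnk (2.19), Adgre1 (1.74), Rag2 (1.60) and Il1r1 (1.33). Lipid, amino acid and detoxification genes among them were Cyp4f18 (1.57), Cth (1.34), Lpin1 (1.33), Fdft1 (1.33), Slc1a4 (1.31), Mvd (1.2), Stard4 (1.06), Nceh1 (0.75) and Gsta4 (0.72). The rest, of replication, repair, chromatin, signalling and folding, were Dnajb4 (1.82), Akap12 (1.32), Dnmt3a (1.18), Tdp1 (1.14), Pdgfrb (1.04), Prim2 (0.87), Ezh1 (0.81), Pole2 (0.69) and Gins3 (0.47).

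Finally, 42 genes fell in B117H and were not called in B140H. Of the largest falls these were Igsf6 (-4.0), Hpgd (-3.59), Uty (-3.48), Ms4a3 (-3.18), Nsd1 (-3.07), Ms4a6d (-2.53), Rab34 (-2.46), Cd9 (-2.45) and Cutc (-2.34). Further granule, monocyte and immune receptor genes were Tyrobp (-2.18), Trem3 (-1.97), Elane (-1.79), Ms4a4b (-1.72), Cebpb (-1.55), Csf2ra (-1.5), Gstm1 (-1.49), Ms4a6c (-1.39), Lyz2 (-1.34), Id1 (-1.27), Ly86 (-1.18), Prtn3 (-0.78) and Cyba (-0.76). Interferon response genes were Rtp4 (-1.87), Usp18 (-1.71), Oasl2 (-1.42) and Cxcl10 (-0.82). Lipid and prostaglandin genes were Ptgs2 (-2.30), Sptlc1 (-1.2), Ggps1 (-1.11), Mylip (-1.0), Hacd2 (-1.0) and Scd2 (-0.57). The others were Abcc2 (-1.74), Hk3 (-1.58), Skp2 (-1.47), Poll (-0.91), Jarid2 (-0.90), Itga6 (-0.85), Itgb5 (-0.84), Cct5 (-0.73), Gusb (-0.72) and Abcc1 (-0.62).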

How the results depend on the processing

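Of 27 alternatives, 0 turned the direction of a called gene among the same 160 genes. Of 4296 gene and setting pairs, 4036 kept their side of the threshold, 251 lost the call and 9 gained it, and 81 genes kept theirs under every setting. The 1712 calls became 1007 at an adjusted p under 0.01 and 174 in limma's test against a fold of 1.5. They were 1020 without all A arrays, 810 without all B arrays and 588 without all C arrays, where fewer samples were fitted. In the same order, the genes that rose were 461, 71, 491, 396 and 237, and those that fell 546, 103, 529, 414 and 351. The genes whose change differed from that in B140H were 1006, 248, 904, 672 and 575. The share of calls that rose was 40.8% against a fold of 1.5 and 40.3% without all C arrays, beside 50.3%, and the cause was not tested. Leaving out single arrays gave 1174 to 1913 calls and 538 to 979 genes that rose, with the lowest without array C of B117H. Leaving out 1 array also added a call to some lists with 0 or 1 in a direction, to the falls of salvage, mitosis and heat shock genes (array B of B140H), deaminases (array B of B117P), T cell markers (array A of B117P) and unfolded protein genes (array A of B117H), and to the rises of efflux transporters (array B of B117P or B140H), T cell markers (array A of B117H), transcription factors (array C of B140P, array A or C of B140H) and lysosomal genes (array B or C of B140H). The array letters paired the samples only in part. Deviations from the line means correlated between B117P and B117H at 0.56 for letter A and 0.39 for C. The best other letter gave 0.01 for A and -0.04 for C. For B the same letter gave 0.03 and the best other letter 0.33. The main fit therefore used no pairing, and what the arrays of a letter share was not tested. With the replicate block, 2381 genes were called, among them all 1712, and 2739 differed from B140H.

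With 3 arrays per line the precision is limited by their number. Intensities near the lowest value, 7.65, give no exact fold change. Genes with several probe sets were represented by the one with the highest mean, and of the 1014 called genes of this kind 461 had another probe set called in the same direction, 3 one called in the opposite direction and 550 no other called.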

Other observations

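Of 9160 probe sets without a gene symbol, 222 were called in B117H against B117P, 114 of them higher. Outside the chromosomes described above, the middle of chromosome 5 held 35 falls among 224 genes in the second of 5 equal stretches of gene order and 38 among 225 in the third. The last stretch of chromosome 6 had 24 falls and 8 rises among 199 genes, and its brighter genes had a median change of -0.18. The first stretch of chromosome 1 had 29 rises and 3 falls among 211 genes, with a median of 0.26 over its brighter genes, against 0.00 in B140H. The last stretch of chromosome 3 had 29 rises and 7 falls among 183 genes, with a median of 0.08 in B117H and 0.58 in B140H. These stretches were picked after their values were seen.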
